A study of Mus musculus with 4 samples.

Results

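Fga, Fgb and Fgg encode the alpha, beta and gamma chains of fibrinogen, the soluble plasma protein that thrombin converts to fibrin during clotting. These 3 genes, chosen by symbol, were all present among the 32285 genes counted in sections of normal and ischemic mouse kidney. All 3 were higher in ischemic than in normal sections, by 10.1-fold for Fga, 47.6-fold for Fgb and 15.0-fold for Fgg, and in ischemic sections all 3 were highest in the cortex. In normal sections the chains did not share one pattern: Fga was higher in the outer stripe of the outer medulla than in the cortex, whereas Fgb and Fgg were higher in the cortex.

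Fibrinogen is a hexamer that holds a pair of each chain, and a complete set of chains is needed for its secretion. Hepatocytes make nearly all of the plasma pool. As acute-phase genes, the chains respond in liver to interleukin-6 through the receptor subunit gp130 and the transcription factor STAT3, together with C/EBP factors and glucocorticoid. Epithelial cells outside the liver can also transcribe them, and injured kidney tubules are one such place.

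The sections were 10 µm thick and came from the left kidneys of male wild-type C57BL/6J mice aged 7 to 8 weeks. The 2 ischemic sections were from mice whose renal pedicles were clamped on both sides for 30 min and whose kidneys were taken after 24 h of reperfusion. The 2 normal sections were labelled as controls, and no source used here says whether those mice had surgery, so ischemia cannot be told apart from surgery and anesthesia. RNA was captured with Visium, in which spots on a slide carry barcoded primers and each captured molecule is counted once by its unique molecular identifier (UMI), so that a spot holds RNA of several cells. The study describes 2 mice per condition with 2 technical replicates each, and no source used here names the mouse behind each section. The p-values of whole sections therefore measure only the spread between sections, which may be technical. Tests between conditions per zone had no section term and took the zones of a section as independent, although they share it. Their p-values can therefore be too small. Tests of zones within sections measure the spread of zone differences between sections, which may also be technical. Visium slides numbered 2 in the study, whose methods do not say which sections shared one, and slide entered no fit.

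The sections held 25957128 to 44528078 UMIs over 2401 to 2682 spots under tissue, 10312 spots in all. Normal 1 was the deepest, with a median of 16162.5 UMIs per spot against 8656 to 11851 in the others. The normal sections differed more from each other than the ischemic sections did, with chi-square values per degree of freedom over genes of 41.9 and 7.32. Barcodes shared by 2 sections (1833 to 2137) were positions of the same array design, not shared cells. Markers of injured tubule marked the ischemic sections: all 9 listed rose, among them Havcr1, which encodes the injury marker KIM-1, from 43 and 59 UMIs to 43731 and 36668 UMIs.

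The chain genes form a cluster of 42140 bases on mouse chromosome 3. In GENCODE's annotation of GRCm38, Fgg (ENSMUSG00000033860) lay at chr3:83007724-83015049 and Fga (ENSMUSG00000028001) at chr3:83026076-83033627, both on the plus strand. Fgb (ENSMUSG00000033831) lay at chr3:83040141-83049863 on the minus strand, and so faces the others. The annotated transcripts had up to 10 exons for Fgg, 6 for Fga and 8 for Fgb. The first bases of Fgg overlap a non-coding RNA on the opposite strand, Gm30097, which held 3, 3, 0 and 2 UMIs in normal 1, normal 2, ischemic 1 and ischemic 2. No source used here says whether counting used strand, and without strand reads of the overlap could not be told apart.

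The upstream sequences are shown because the members moved together. They were taken from RefSeq (GRCm38.p6), run from 250 bases before the RefSeq start to the last base before the first annotated start, and are written 5′ to 3′ on the strand of the gene. Capitals mark matches to 3 motifs on either strand, namely CTGGGA, the core named for the interleukin-6 response, TTCNNNGAA, a STAT palindrome, and TTGCNNAA, a core bound by C/EBP factors. The motifs were chosen after the sequences had been seen. The stretches are chr3:83007474-83007723 (plus strand) for Fgg, chr3:83025903-83026075 (plus strand) for Fga and chr3:83049864-83050113 (minus strand) for Fgb.
Fgg: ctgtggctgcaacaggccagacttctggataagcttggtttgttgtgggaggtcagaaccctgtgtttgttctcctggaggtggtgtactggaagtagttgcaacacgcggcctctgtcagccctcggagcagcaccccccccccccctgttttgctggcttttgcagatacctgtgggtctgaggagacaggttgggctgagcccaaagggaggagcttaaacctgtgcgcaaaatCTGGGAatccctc
Fga: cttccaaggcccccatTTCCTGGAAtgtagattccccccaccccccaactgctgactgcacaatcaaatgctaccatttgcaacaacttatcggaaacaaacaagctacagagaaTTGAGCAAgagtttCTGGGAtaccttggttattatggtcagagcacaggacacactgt
Fgb: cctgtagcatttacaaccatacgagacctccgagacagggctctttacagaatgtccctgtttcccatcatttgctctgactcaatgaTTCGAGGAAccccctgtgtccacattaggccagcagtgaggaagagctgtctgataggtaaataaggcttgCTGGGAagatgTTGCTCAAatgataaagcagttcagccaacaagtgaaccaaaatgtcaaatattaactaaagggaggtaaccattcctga

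CTGGGA was found in all 3 windows, and in 31.8% of the 32851 promoter windows of 300 bases in the RefSeq table. TTCNNNGAA was found upstream of Fga and Fgb and in 8.30% of all windows, and TTGCNNAA upstream of the same genes and in 10.8% of all windows. In Fgb, CTGGGA began 91 bases and TTGCNNAA 80 bases before the RefSeq start. In Fga they began 121 and 135 bases before it, the latter on the opposite strand. A form of the HNF1 motif was in none of the 3 windows and in 0.0609% of all. The motifs overlapped one another in none of the stretches, and a match is a description of letters only.

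Whole sections were compared first, to see whether the chains differed between normal and ischemic kidney. Fga held 872 and 534 UMIs in normal 1 and 2 and 7697 and 6006 UMIs in ischemic 1 and 2. Fgb held 62 and 60 UMIs in the normal sections and 3448 and 2282 UMIs in the ischemic ones. Fgg held 458 and 349 UMIs in the normal sections and 7149 and 4762 UMIs in the ischemic ones. In each of the 3 genes both ischemic sections were above both normal sections.

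After scaling by library size and TMM factors, which adjust for composition, the level of Fga in CPM, the usual unit of counts scaled to library size, was 21.5 ± 3.03 (SD, n = 2) in normal and 218 ± 12.0 (SD, n = 2) in ischemic sections. The fit gave a log2 fold change of 3.34 with a standard error of 0.14, and by edgeR's quasi-likelihood test the adjusted p was 2.31e-07. Fgb went from 1.93 ± 0.349 CPM (SD, n = 2) to 90.6 ± 15.5 CPM (SD, n = 2), a log2 fold change of 5.57 with a standard error of 0.18 (edgeR, adjusted p = 9.66e-08). Fgg went from 12.5 ± 0.163 CPM (SD, n = 2) to 188 ± 31.3 CPM (SD, n = 2), a log2 fold change of 3.91 with a standard error of 0.15 (edgeR, adjusted p = 1.72e-07). All 3 chains rose, where 31% of the 15305 genes tested were called higher and 29.7% lower. By log2 fold change they ranked 75 (Fgb), 172 (Fgg) and 233 (Fga).

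So many genes differed that the scaling matters for their split. With library size alone 5750 genes were called higher and 2829 lower, against 4737 and 4542 with TMM factors, and the median log2 fold change of all genes tested moved from 0.04 to 0.31. The chains' own values then moved by about that shift, to 3.62 for Fga, 5.85 for Fgb and 4.18 for Fgg. In sums over tissue, more cells with a transcript and more transcript per cell cannot be told apart.

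**Figure D1:**
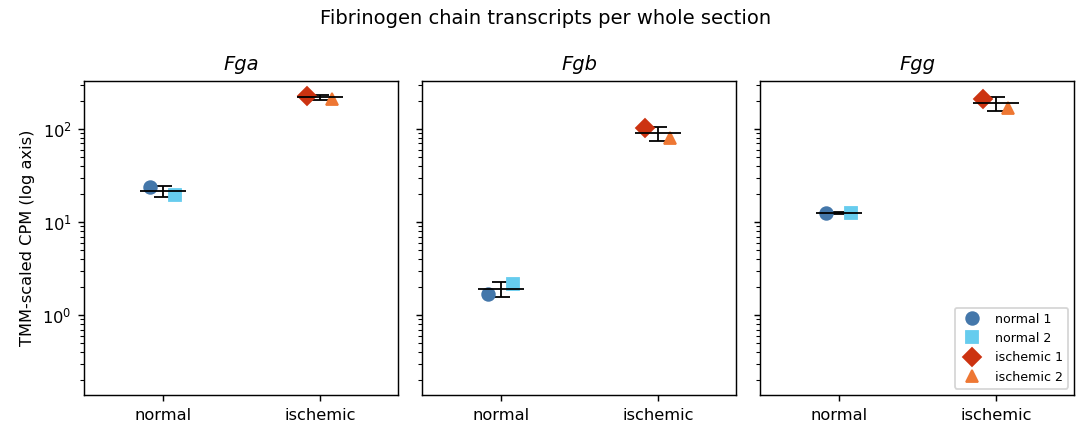
TMM-scaled CPM on a log axis for Fga, Fgb and Fgg in each whole section. Points are sections, and the bar and whiskers give the mean and SD of 2 sections, with Fgb at 1.93 CPM in normal and 90.6 CPM in ischemic sections.

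Zones were then assigned to spots from lists of zone markers, pooled over a spot and its neighbours, to ask where in the kidney the chains were transcribed. Cortex took 36.5% to 45.0% of the spots and outer stripe 25.9% to 30.7%. Zone markers are themselves altered in ischemic kidney, with all 6 cortex and all 5 outer stripe markers lower, so zones were scored within each section and could be drawn differently in the 2 conditions. The call of pelvis rested on 1094 and 1675 marker UMIs in the ischemic sections against 9004 and 14670 in the normal ones, and only 28.3% and 28.5% of ischemic pelvis spots were called so without their neighbours. Values for pelvis are therefore insecure.

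**Figure D2:**
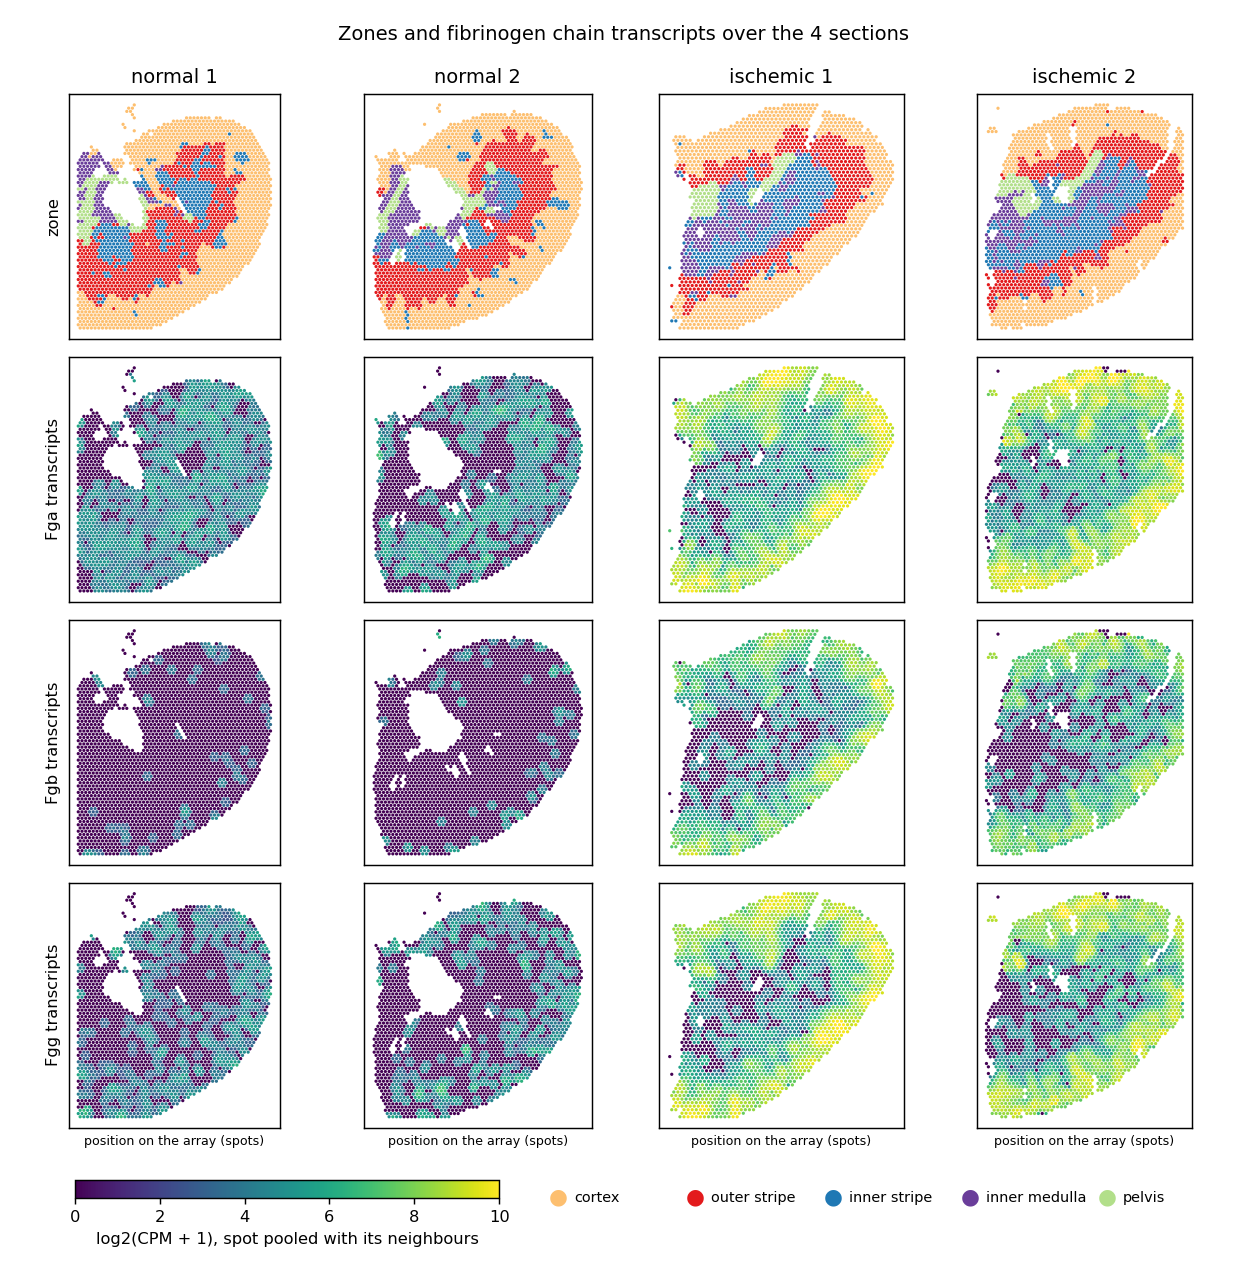
Maps of the 4 sections, with each dot a Visium spot at its position on the array. The top row gives the assigned zone and the lower rows log2(CPM + 1) of each chain pooled over a spot and its neighbours, with the scale ending at 10. Signal of all 3 chains fills the outer rim in ischemic sections, while in normal sections Fga spreads over cortex and outer stripe and Fgb is scattered in the rim.

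In the cortex, which holds the convoluted proximal tubules, Fga rose from 22.0 and 17.4 CPM in normal 1 and 2 to 499 and 482 CPM in ischemic 1 and 2. The log2 fold change was 4.63 with a standard error of 0.21 (edgeR, adjusted p = 3.52e-12). Fgb rose from 3.62 and 5.34 CPM to 239 and 195 CPM, with a log2 fold change of 5.63 and a standard error of 0.18 (edgeR, adjusted p = 2.23e-13). Fgg rose from 22.0 and 22.7 CPM to 481 and 392 CPM, with a log2 fold change of 4.29 and a standard error of 0.17 (edgeR, adjusted p = 8.31e-13). For each chain the ischemic cortex was the zone with the highest level, and the conditions did not overlap. Of the 14174 genes tested per zone, 20.2% were called higher and 19.9% lower in ischemic cortex.

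In the outer stripe, where the straight part of the proximal tubule lies, the chains rose by unlike amounts. Fga went from 39.9 and 38.1 CPM to 144 and 161 CPM, a log2 fold change of 1.97 with a standard error of 0.19 (edgeR, adjusted p = 3.92e-08). Fgg went from 8.55 and 12.5 CPM to 125 and 131 CPM, a log2 fold change of 3.62 with a standard error of 0.18 (edgeR, adjusted p = 8.38e-12). Fgb held 5 and 2 UMIs in the normal outer stripe and 467 and 424 UMIs in the ischemic one, a ratio of CPM of 172 with a 95% counting interval of 83.2 to 429. The fitted log2 fold change of Fgb was 6.93 with a standard error of 0.28 (edgeR, adjusted p = 1.55e-12). In this zone 27.4% of all genes tested were called higher.

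The inner stripe, the zone of the thick ascending limbs, had the smallest change of Fga, from 22.0 and 13.8 CPM to 34.1 and 42.1 CPM. Its log2 fold change was 1.05 with a standard error of 0.22 (edgeR, adjusted p = 0.000616), beside 22.2% of all genes called higher there. Fgg rose there from 5.18 and 3.11 CPM to 23.1 and 22.7 CPM, a log2 fold change of 2.39 (edgeR, adjusted p = 2.73e-07). Fgb had 0 and 1 UMIs in normal and 71 and 77 UMIs in ischemic inner stripe, a ratio of CPM of 139 with a 95% counting interval of 24.6 to 5525. These sizes are loosely fixed: with zones called from single spots the log2 fold changes were 2.28 for Fga and 4.02 for Fgg, and without normal replicate 1 or 2 that of Fgb was 5.27 or 9.40.

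The zone called inner medulla was not alike in the 2 conditions: it took 5.12% and 8.35% of spots, at a median of 1 spot from the edge, in normal 1 and 2, and 12.2% and 11.5% of spots, at a median of 5 spots, in ischemic 1 and 2. The part of this in its values was not tested. There Fga rose by 2.52 (edgeR, adjusted p = 1.18e-05) and Fgg by 4.00 (edgeR, adjusted p = 1.43e-06) on the log2 scale, where 13.9% of all genes were called higher. The normal inner medulla held only 18 UMIs of Fga, 2 of Fgb and 4 of Fgg over both sections, against 229, 88 and 142 UMIs in the ischemic one. The ratio of CPM for Fgb was 22.5 with a 95% counting interval of 6.03 to 188. Without normal replicate 1 or 2 the log2 fold change of Fga was 3.25 or 1.87. In the pelvis, where 10.7% of genes were called higher, the log2 fold changes were 4.71 for Fga and 5.11 for Fgg (edgeR, adjusted p = 1.17e-08 and 1.10e-08), and that of Fgg was 5.88 without normal replicate 1. Fgb was not seen in normal pelvis and was at least 43.7-fold higher in ischemic pelvis, with the normal group set at the floor of 3 UMIs over its 2 sections. Zones called from single spots gave 3.07 for Fga and 3.86 for Fgg in the pelvis, and 2.85 for Fgg and 5.72 for Fgb in the inner medulla.

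**Figure D3:**
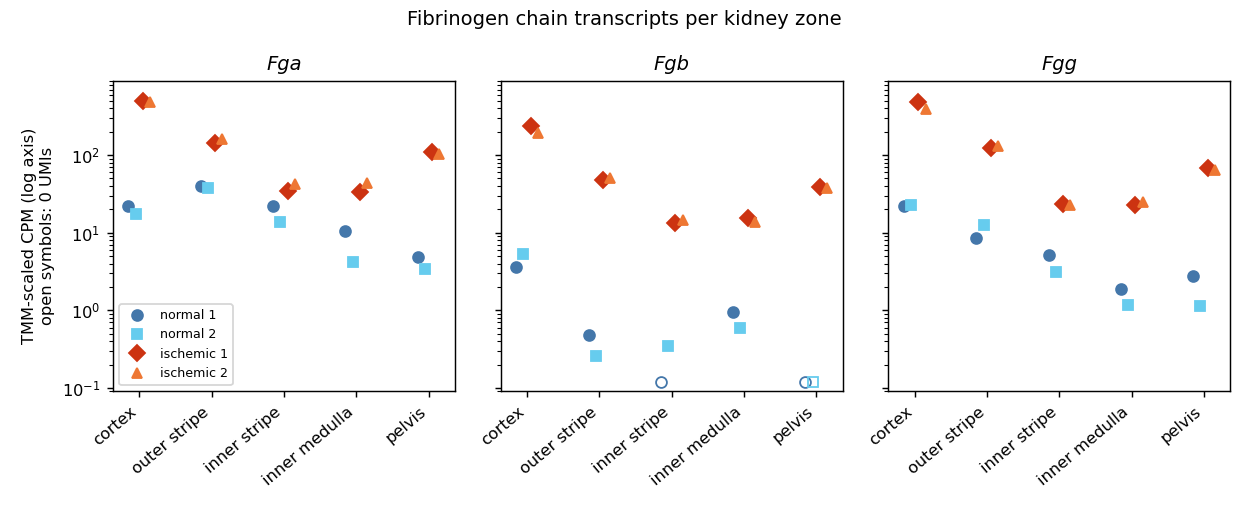
TMM-scaled CPM on a log axis for each chain in 5 kidney zones, with 1 symbol per section and open symbols for 0 UMIs. Ischemic sections lie above normal sections in every zone, and the gap for Fga narrows from cortex (log2 fold change 4.63) to inner stripe (1.05).

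Zones were next compared within sections, with the section kept as a block, to see whether the layout of each chain was the same in both conditions. In normal sections Fga was higher in outer stripe than in cortex by 0.98 on the log2 scale, with a standard error of 0.13 (edgeR, adjusted p = 8.92e-06), in both sections. Fgb was lower in outer stripe than in cortex by a log2 difference of -3.42 (edgeR, adjusted p = 2.00e-06), and Fgg by -1.11 with a standard error of 0.16 (edgeR, adjusted p = 1.81e-05). Of all genes tested, 12.5% were called higher and 10.3% lower in normal outer stripe than in normal cortex. The Fgb value rests on 7 UMIs in the outer stripe and 112 in the cortex over both sections, and was -4.29 without normal replicate 1.

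In ischemic sections all 3 chains were lower in outer stripe than in cortex, with 19.3% of all genes called lower. The log2 differences were -1.69 for Fga, -2.12 for Fgb and -1.76 for Fgg, with standard errors of 0.11 each (edgeR, adjusted p = 4.64e-10, 5.52e-11 and 2.77e-10). The change of the outer stripe difference from normal to ischemic was tested as an interaction. For Fga it was -2.67 with a standard error of 0.17 (edgeR, adjusted p = 1.06e-08), in a test that called 13.5% of all genes lower and 8.06% higher. For Fgg it was -0.66 with a standard error of 0.19 (edgeR, adjusted p = 0.0193), and this call was lost without normal replicate 2 (-0.41), without ischemic replicate 1 (-0.47), without ischemic replicate 2 (-0.84), and in 3 other settings. For Fgb it was 1.301 with a standard error of 0.47 and missed the threshold (edgeR, adjusted p = 0.0575). The order of cortex and outer stripe thus turned round for Fga and for no other chain, and the Fga call held in every setting tried.

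Deeper zones were also set against the cortex. In ischemic sections the log2 differences of the inner stripe were -3.69 for Fga, -3.95 for Fgb and -4.25 for Fgg, and those of the inner medulla -3.69, -3.89 and -4.21, beside 26.5% and 24.9% of all genes called lower and 23% and 20.7% higher (edgeR, largest adjusted p = 3.58e-13). With zones called from single spots the inner stripe differences shrank to -2.61, -2.63 and -2.74. In normal sections Fgg was lower in inner stripe by -2.34 and in inner medulla by -3.94 (edgeR, adjusted p = 2.24e-07 and 8.71e-07), beside 15% and 20.6% of all genes called lower and 14.2% and 19.6% higher. Fga differed from cortex in normal inner medulla by -1.55 (edgeR, adjusted p = 0.00042), whereas in normal inner stripe its difference of -0.11 with a standard error of 0.17 missed the threshold (edgeR, adjusted p = 0.675). Fgb was lower in both normal zones, by -4.80 and -2.63 (edgeR, adjusted p = 2.57e-05 and 0.0068), from 1 and 2 UMIs, and the latter missed the threshold without normal replicate 2 (-1.92, edgeR adjusted p = 0.266). With 1 normal section left out these values moved widely: Fgb in inner stripe was -3.96 without normal replicate 1 and -7.46 without normal replicate 2, and without normal replicate 1 Fga in inner medulla was -2.20 and Fgg in inner stripe -2.95. Zones called from single spots gave -0.60 for Fga and -1.86 for Fgg in normal inner medulla.

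The share of each chain among all fibrinogen chain UMIs needs no scaling between sections. Shares were compared between sections and zones only, since the counts are not scaled by transcript length. In the outer stripe Fga made up 81.5% and 74.9% of chain UMIs in normal 1 and 2, against 45.3% and 46.9% in ischemic 1 and 2. Fgb made up 0.992% and 0.503% there in normal 1 and 2 and 15.2% and 14.9% in ischemic 1 and 2. In the cortex the share of Fga was 46.3% and 38.4% in the normal pair and 40.9% and 45.1% in the ischemic pair, so that the conditions overlapped. The share of Fgb in the cortex was 7.60% and 11.7% in the normal pair and 19.6% and 18.2% in the ischemic pair, and did not overlap. Across all 5 zones of the ischemic sections the share of Fga stayed between 40.9% and 53.0%, whereas in the normal sections it ran from 38.4% to 81.5%. The share of Fga was higher in outer stripe than in cortex in all 4 sections, by a wider gap in the normal pair.

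**Figure D4:**
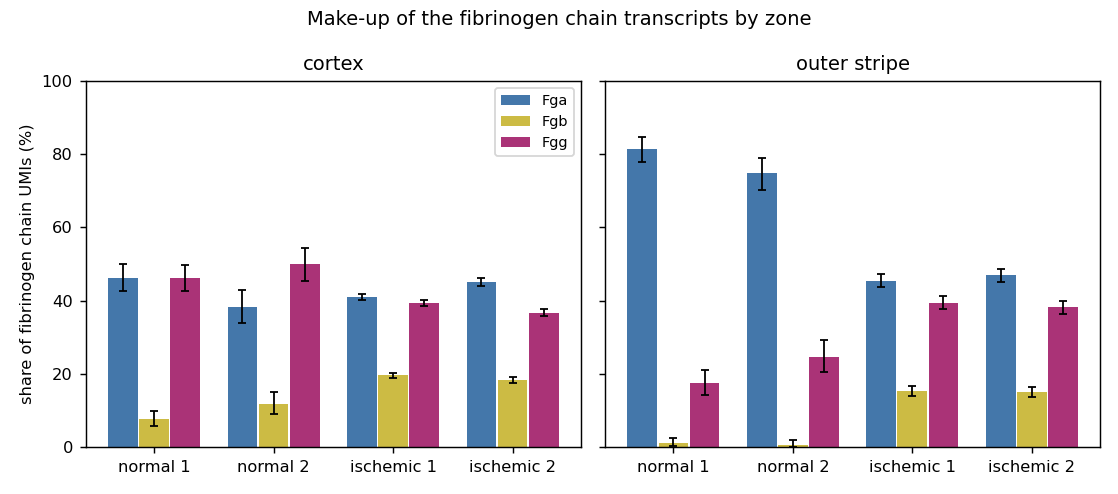
Share of each chain among all fibrinogen chain UMIs in cortex and outer stripe of each section, with exact 95% binomial intervals that cover counting error only. Fga takes 81.5% and 74.9% in normal outer stripe and 45.3% and 46.9% in ischemic outer stripe.

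A finer view came from grouping spots by their distance, in spots, from the nearest cortex spot. In ischemic 1 the level of Fga was 466 CPM in the cortex, 209 CPM at 1 spot, 144 CPM at 2, 115 CPM at 3, 78.4 CPM at 4 to 6 and 39.2 CPM at 7 or more. In ischemic 2 the series was 449, 250, 178, 108, 86.7 and 49.8 CPM. Fgb and Fgg were also lower at each step in both ischemic sections, down to 15.3 and 14.3 CPM for Fgb and 23.5 and 24.3 CPM for Fgg at 7 spots or more. In the normal sections Fga was higher at the first steps than in the cortex, going from 16.4 and 15.1 CPM in the cortex to 26.01 and 31.6 CPM at 2 spots, then to 16.9 and 12.3 CPM at 7 spots or more. These values are a description, with CPM taken per section without TMM factors and no test, and the steps lie in neighbouring spots of the same section.

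**Figure D5:**
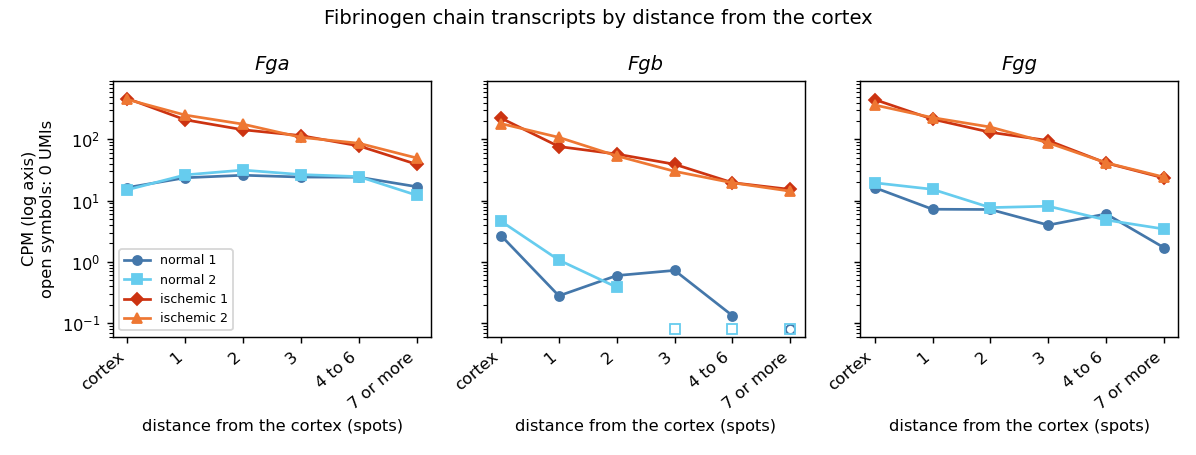
CPM on a log axis for each chain against the distance of spots from the cortex, 1 line per section, with open symbols for 0 UMIs. In ischemic sections each chain declines step by step, from 466 and 449 CPM to 39.2 and 49.8 CPM for Fga. In normal sections Fga is highest at 2 spots, but in normal 1 it is nearly flat from 1 to 6 spots (23.7 to 26.01 CPM). No counting intervals were taken for these steps.

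Within the ischemic cortex the chains were not evenly spread. Fga had a median of 4 and 3 UMIs per cortex spot in ischemic 1 and 2, with highest counts of 59 and 41 UMIs. For Fgb the medians were 2 and 1 UMIs and the highest counts 54 and 17, and for Fgg they were 4 and 2 UMIs and 63 and 31. Over the whole section the 10% of spots with the most Fga UMIs held 51.2% and 52.2% of them in ischemic 1 and 2. In normal 1 and 2 the share was 53.8% and 69.3%. These spots were picked by the same counts, and sparse counts raise the share, so it does not measure unevenness. Cortex spots within 2 spots of the section's edge had 519 and 491 CPM of Fga, against 259 and 313 CPM in cortex spots 6 to 9 spots from it, and Fgb and Fgg were ordered in the same way. Ischemic cortex spots were then ranked by the Havcr1 level of their neighbours, with the spot's own counts left out. The quartile with the most Havcr1 around it had the least of each chain in both sections. Fga was at 339 and 365 CPM there, against 459 to 539 and 436 to 512 CPM in the other quartiles. Havcr1 itself was higher in ischemic outer stripe (2469 and 2573 CPM) than in ischemic cortex (1345 and 1422 CPM). The part of nearness to the outer stripe in this ranking was not tested. Rankings by Lcn2, Slc34a1, Slc22a6, Il6st and Socs3, run in the same way, left no quartile lowest for every chain in both sections.

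Chain transcripts were also counted by spot. The share of spots with at least 1 UMI was 25.4% and 16.1% in the normal pair and 60.8% and 55.6% in the ischemic pair for Fga. For Fgb it was 2.22% and 2.01% in the normal pair and 42.1% and 36.0% in the ischemic pair, and for Fgg 14.3% and 10.2% against 55.6% and 48.3%. Because depth differed, each spot was thinned to 2000 UMIs, with 48 and 150 shallower normal spots and 58 and 105 shallower ischemic spots left out. The thinned shares were 3.66% and 3.59% against 28.3% and 28.5% for Fga, a ratio of means of 7.84. They were 0.117% and 0.474% against 15.4% and 13.2% for Fgb, a ratio of 48.4 from 3 and 12 normal spots (27.8 to 132 over pairs of sections, 18.5 with no thinning), and 1.99% and 2.21% against 25.7% and 22.8% for Fgg, a ratio of 11.6. The normal and ischemic sections did not overlap for any chain. How many of all genes would show such a gap was not counted, and 31% of genes tested were called higher in whole sections.

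By zone, 87.4% and 81.8% of ischemic cortex spots had an Fga UMI, at median depths of 12316 and 8441 UMIs. In the ischemic inner medulla, a zone without proximal tubules, 27.4% and 26.7% of spots had one, at median depths of 8731 and 7196.5 UMIs. In the normal inner medulla the share was 6.72% and 3.12%, and in the normal cortex 23.8% and 13.5%. The ischemic cortex was thus well above the zone with the fewest positive spots in its own section.

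The chains were then compared spot by spot. In ischemic sections 778 spots (32.4%) and 684 spots (26.2%) held UMIs of all 3 chains, against 9 (0.344%) and 4 (0.149%) in normal sections. In the ischemic cortex the share with all 3 was 63.8% and 54.5%. Of ischemic spots with Fgb, 85.3% and 83.1% also held Fga, which was present in 43.0% and 40.2% of spots without Fgb. In normal sections 36.2% and 16.7% of spots with Fgb held Fga, against 25.2% and 16.1% of spots without it. Fgb was in 5.08% and 6.23% of normal spots with Fgg, against 1.74% and 1.54% of those without it. Fga was in 34.5% and 25.3% of normal spots with Fgg, against 23.9% and 15.1% of those without it. For Fgb in ischemic sections the shares were 62.4% and 58.9% with Fgg, against 16.7% and 14.5% without it. Spots with all 3 chains were deeper than spots with none, with medians of 15253.5 and 12356 UMIs against 9084 and 7262 UMIs in the ischemic sections, and the part of depth in the shared detection was not tested.

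Correlations across spots, on log2(CPM + 100), are given as descriptions, since spots of a section share library, depth and neighbourhood. Pearson's r between Fga and Fgg was 0.730 over 2401 spots in ischemic 1 and 0.639 over 2613 spots in ischemic 2. It was 0.655 and 0.541 between Fga and Fgb and 0.655 and 0.567 between Fgb and Fgg. In normal sections r ran from -0.014 to 0.071 over the 3 pairs. Fgb was seen there in only 58 of 2616 and 54 of 2682 spots. Such sparse counts lower r whatever the layout, so the normal and ischemic values of r cannot be compared. Within the ischemic cortex alone r ran from 0.414 to 0.584. After pooling each spot with its neighbours r ran from 0.855 to 0.939 in ischemic sections, and after thinning to 2000 UMIs from 0.255 to 0.391.

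The genes most like the summed chains across ischemic spots included Selenop, Ndrg1, Dbi, Slc13a1, Slc17a1, Gpx3, Spink1, Cyp4a10 and Kcnj15, out of 6347 genes with at least 500 UMIs in each ischemic section. Their lower r of the 2 ischemic sections was 0.846 to 0.880 after pooling with neighbours. Selenop encodes the selenium carrier selenoprotein P, Gpx3 the plasma glutathione peroxidase made by proximal tubule, Slc13a1 a sulfate and Slc17a1 a phosphate transporter of the proximal tubule, and Cyp4a10 a cytochrome P450 that acts on fatty acids. Within the cortex alone their r was lower, 0.461 for Selenop and 0.0797 for Kcnj15 at the lower section. A ranking within the cortex, added after these values were seen, put Ndrg1 first (0.491) and held the acute-phase genes C3 (0.462) and Lrg1 (0.458) among its first 10.

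Over the 20 sums of sections and zones, the genes most like Fga were Slc20a2, Nrg1, Txnrd1, Gsr and Hmox1, with Pearson's r of 0.935 to 0.946. Those most like Fgb were H6pd, Cnih4, Bag2, Steap2 and Plin2 (0.941 to 0.964), and those most like Fgg were Cnih4, Acat3, Itgb6, Hmox1 and Tfrc (0.956 to 0.961). Hmox1 encodes heme oxygenase and Tfrc the transferrin receptor. By the same measure Fga had an r of 0.960 with Fgg and 0.894 with Fgb, and Fgb one of 0.948 with Fgg. The sums share sections and conditions, so these values carry no test.

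Genes that act on fibrinogen were taken from lists. Of 22 listed coagulation factors and inhibitors, 18 were tested, 8 rose and 7 fell, with a median log2 fold change of 0.15 against 0.04 over all genes tested. For this list and those that follow, the share of all genes called was 31% higher and 29.7% lower, and the coagulation counts lie near it. F3, which encodes tissue factor, the starter of clotting, rose from 9.68 and 17.8 CPM to 144 and 143 CPM, a log2 fold change of 3.15 (edgeR, adjusted p = 1.15e-06). Serpind1, which encodes heparin cofactor II, rose by 3.06 from 4 and 5 UMIs to 38 and 37 UMIs. F13b, the carrier subunit of the fibrin-crosslinking factor XIII, and Klkb1, which encodes prekallikrein, had log2 fold changes of -2.80 and -2.78. The level of F3 in ischemic sections was lowest in the cortex, at 62.6 and 57.1 CPM, and highest in the outer stripe, at 255 and 266 CPM, unlike the chains.

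Of 13 listed genes of fibrinolysis, the enzyme system that dissolves fibrin, 11 were tested, 9 rose and 1 fell, with a median log2 fold change of 1.97. Plaur, the urokinase receptor, rose by 3.78 (edgeR, adjusted p = 6.79e-07), from 139 and 179 UMIs to 2349 and 1989 UMIs. Anxa2, whose product binds plasminogen on cell surfaces, rose by 2.97. The one that fell was Serpinf2, which encodes the plasmin inhibitor alpha-2-antiplasmin, with a log2 fold change of -2.86.

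All 11 listed receptors for fibrinogen and fibrin were tested, 9 rose and 2 fell, with a median of 0.98. Itgam, a subunit of the leukocyte integrin Mac-1, rose by 3.70 (edgeR, adjusted p = 1.47e-05) from 7 and 9 UMIs to 106 and 99 UMIs. Itga5 rose by 3.09 and Itgav by 1.26, both integrin alpha subunits, and Itga2b, the platelet integrin subunit, had a log2 fold change of -1.33. Of 16 listed genes with a fibrinogen-like domain, 13 were tested, 4 rose and 4 fell, with a median of -0.25, which is about the share over all genes in each direction. Tnc, the matrix protein tenascin C, rose by 4.48 and Angptl7 by 2.38, whereas Fgl1, a fibrinogen-like protein made in liver, and Mfap4 had log2 fold changes of -2.51 and -2.36.

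The list for the interleukin-6, STAT3 and C/EBP pathway had 22 genes, of which 21 were tested, 12 rose and 4 fell, with a median of 0.61. Il6 was at 0 UMIs in both normal sections and at 71 and 78 UMIs in the ischemic ones, at least 62.9-fold higher with the normal group set at the floor of 3 UMIs. Il11 and Lif, cytokines that also signal through gp130, rose by 6.26 and 5.70 (edgeR, adjusted p = 1.00e-07 and 2.18e-07). Socs3, the feedback inhibitor that STAT3 induces, rose by 4.73 (edgeR, adjusted p = 6.65e-07). Stat3 and Cebpb, named after their values were seen because their motifs are shown above, rose by 1.4996 and 1.961.

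Socs3 and the chains were not laid out alike. In ischemic 1 and 2 Socs3 was at 25.8 and 29.1 CPM in the cortex, 47.1 and 38.1 CPM in the outer stripe and 115 and 100.3 CPM in the inner stripe. Its r with the summed chains across ischemic spots, pooled with neighbours, was -0.63 and -0.57, and within the ischemic cortex 0.17 and 0.058. Il6 itself was sparse, at 0.256 and 0.809 CPM in ischemic cortex and 4.64 and 5.34 CPM in ischemic outer stripe.

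Of 18 listed acute-phase genes, 13 were tested, 7 rose and 4 fell, with a median of 1.20. Saa1, serum amyloid A, was at 0 UMIs in normal sections and at 678 and 340 UMIs in ischemic ones, at least 430-fold higher by the same floor. Lcn2, which encodes the injury marker NGAL, rose by 8.78, Saa3 by 4.15 and Serpina3n by 3.504. Saa1 had the layout of the chains, with 47.4 and 28.1 CPM in ischemic cortex, 9.59 and 9.10 CPM in outer stripe and 0.56 and 1.90 CPM in inner stripe. Lcn2 had the reverse one, with 791 and 667 CPM in ischemic cortex and 8121 and 9001 CPM in inner medulla. Its r with the summed chains, over pooled ischemic spots, was -0.82 and -0.79.

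Markers of other cells that could carry chain RNA were examined beside these results. Of 10 listed hepatocyte genes 7 were tested and all 7 fell, and the summed level of all 10 went from 699 and 694 CPM to 116 and 123 CPM. Alb, albumin, was at 132 and 67 UMIs in the normal pair and 47 and 34 UMIs in the ischemic pair, a log2 fold change of -1.23 (edgeR, adjusted p = 0.00358). Ttr, transthyretin, and Apoa1, apolipoprotein A-I, had log2 fold changes of -4.00 and -2.14, Cyp2e1, a cytochrome P450, and Apoa2, apolipoprotein A-II, had -3.87 and -1.91, and Ahsg held 0, 2, 0 and 0 UMIs in normal 1, normal 2, ischemic 1 and ischemic 2. Most of the summed level was Ttr and Cyp2e1, which were at 552 and 500 CPM and at 561 and 534 CPM in normal cortex, where Alb was at 6.21 and 3.62 CPM. The fall of the sum is therefore no measure of hepatocyte RNA, and a part of such RNA in the chains was not tested.

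Of 8 platelet genes 3 were tested, and the summed level of all 8 was 23.6 and 30.0 CPM in the normal pair and 24.5 and 26.3 CPM in the ischemic pair. Pf4, platelet factor 4, rose by 0.88 (edgeR, adjusted p = 0.000144) and Ppbp had a log2 fold change of -1.11 from 29 and 26 to 17 and 8 UMIs. All 5 red cell genes fell, among them the globins Hbb-bs (-3.32) and Hbb-bt (-3.66) and Alas2 (-3.57). All 7 neutrophil genes rose, S100a8 by 7.17 and S100a9 by 6.59, and their summed level went from 1.91 and 2.93 CPM to 182 CPM in both ischemic sections. S100a8 was at 28.7 and 34.2 CPM in ischemic cortex and at 145 and 149 CPM in ischemic outer stripe, so that it did not follow the chains.

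The macrophage list had 1 gene that rose, Cd68 (2.25), and 4 that fell among 8 tested, Csf1r (-1.96) the furthest. Injured tubule markers rose in all 9 cases, from a summed 1097 and 1763 CPM to 45903 and 48573 CPM. Proximal tubule markers fell in all 9, from 136897 and 96381 CPM to 23441 and 21994 CPM. Markers of thick limb fell in 5 of 5 and of distal tubule and collecting duct in 3 of 6. Endothelial markers rose in 3 of 6 and fell in 1, and fibroblast and smooth muscle markers rose in 5 of 6 and fell in 1. No distal tubule or collecting duct marker rose. With 6 genes each, the distal and endothelial lists are too short to set apart from the share over all genes, 31% higher and 29.7% lower. The part of these cell types in the chains' rise was not tested.

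The genes around the cluster were set beside it. Plrg1, a splicing factor gene on the Fgb side, rose by 0.29 on the log2 scale (edgeR, adjusted p = 0.0332), with 638 and 445 UMIs in the normal pair and 722 and 560 UMIs in the ischemic pair. Lrat, which encodes the retinol-esterifying enzyme and lies on the Fgg side, had a log2 fold change of -2.84 (edgeR, adjusted p = 4.32e-05), with 121 and 74 UMIs in the normal pair and 16 and 10 UMIs in the ischemic pair. Rbm46os, which spans Lrat and ends nearer the cluster, and Gm10710, which lies beyond Plrg1, held 0 UMIs in all 4 sections.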

How the data were processed

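Per the labels and the study's methods, the authors captured polyadenylated RNA on Visium slides, sequenced the libraries and ran Space Ranger (1.3.0 in the file headers, mm10 in the submitters' processing notes) to obtain UMI counts per gene and spot. These deposited counts were raw and not normalized, and only spots under tissue were used. No source used here says whether counting used strand. The other sections of the study were not analysed here. The members and gene lists were chosen with earlier results of these data known.

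Counts were summed per section and per section and zone. Every zone held at least 20 spots. Zones were the highest of the marker scores (mean log2(CPM + 1) over a spot and up to 6 neighbours, standardised within the section), with pelvis for spots with at least 10 marker counts in the top 5% of the section. Sums were fitted over all genes with edgeR 4.0.16 in R 4.3.3 (quasi-likelihood test after TMM scaling and filterByExpr, with p-values adjusted by Benjamini-Hochberg within each contrast, threshold 0.05), as sections, as conditions within zones, and as zones with section as a block. Binomial and Poisson intervals are exact, at 95%, and for a count of 0 the limit was set at 3 counts. Both cover counting error only. Alternatives were DESeq2 1.42.0, its size factors, library size alone, no filter on low counts, each section left out, a replicate block, other rules for spots and zones, thinning to 5000 UMIs and a pseudocount of 1000 CPM.

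Named genes were the chains, up to 4 members per list with the largest change past the threshold, defining genes of other cell types, the genes most like the chains, and 2 neighbours of the cluster on each side. Some genes that this rule names are not reported here. The R and Python steps were tested on simulated data.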

Additional observations from a re-analysis of the deposited data

Results flagged for a closer look

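The difference between outer stripe and cortex differed between ischemic and normal sections for Fga, and less securely for Fgg, by the interaction term of edgeR's quasi-likelihood test. For Fga it was -2.67 on the log2 scale (adjusted p = 1.06e-08), and both normal sections had more Fga in outer stripe and both ischemic sections more in cortex. For Fgg it was -0.66 (adjusted p = 0.0193), a difference in size only, since Fgg was higher in the cortex in all 4 sections. The Fgg call was lost without normal replicate 2, without either ischemic section, with DESeq2, with zones called from single spots and with no section block. With 2 sections per group no test for a single outlying section was possible.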

How the results depend on the processing

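Every alternative kept the direction and the call of all 3 chains in whole sections (33 of 33 values) and in zones (165 of 165), including those without each section in turn. Of 231 values for zones within a condition, 222 kept both, and 9 crossed the threshold with no change of direction. The interaction of Fgb, 1.301 in the report, passed with DESeq2's size factors in edgeR (1.35, adjusted p = 0.0483) and with no filter on low counts (1.42, adjusted p = 0.0222). The interaction of Fgg missed it with DESeq2 (-0.61), with zones called from single spots (-0.55) and with no section block (-0.67), and ran from -0.94 to -0.41 with a section left out. That of Fgb ran from 0.72 to 2.11, and that of Fga from -2.85 to -2.55. The difference of Fgb between normal inner medulla and cortex ran from -3.25 to -1.92. The cause of these changes was not tested.

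With boundary spots left out, Fgb in the inner stripe had a log2 fold change of 9.07. The ratio of thinned shares was 5.10 for Fga, 35.3 for Fgb and 7.15 for Fgg at 5000 UMIs, and 2.80, 18.5 and 4.25 with no thinning. Mean r of the ischemic sections was 0.879 (Fga with Fgb), 0.924 (Fga with Fgg) and 0.878 (Fgb with Fgg) pooled with neighbours, 0.294, 0.377 and 0.313 thinned, and 0.444, 0.571 and 0.488 in outer stripe alone. Mean r of the normal sections was -0.024, 0.0647 and 0.221 pooled with neighbours, 0.0174, 0.0395 and 0.00168 in outer stripe alone, 0.0404 (Fga with Fgg) and 0.0114 (Fgb with Fgg) thinned, and 0.0492 (Fgb with Fgg) with a pseudocount of 1000 CPM.

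The 9279 genes called in whole sections became 6493 to 10877 with a section left out. Without ischemic replicate 1 or 2, the calls between conditions went from 5689 to 2611 or 2508 in cortex, from 6827 to 4220 or 4224 in inner stripe, from 4978 to 2549 or 2729 in inner medulla and from 3576 to 1099 or 1236 in pelvis. Calls of the interaction went from 3049 to 740 or 878, and of outer stripe against cortex from 5132 to 1630 or 1870 in ischemic and from 3236 to 2150 or 2151 in normal sections. Calls of ischemic inner stripe and inner medulla against cortex went from 7015 to 3783 or 3854 and from 6459 to 3491 or 3429. Single spots gave 2248 calls in pelvis, and no section block gave 1665 for the interaction and 2134 for normal outer stripe against cortex.

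The sections share replicate numbers, but the numbers are not said to mark a mouse or day, and with 2 pairs (correlation of deviations 0.2246 over 13814 genes) they do not pair the samples. With the replicate block 5197 genes were called higher and 4892 lower, and the chains were at 3.35 (Fga), 5.58 (Fgb) and 3.905 (Fgg) with no change of call. Library size alone and the rules for spots with at least 100 UMIs and for pelvis spots were added after seeing the data. Depth limits Fgb in normal inner stripe and inner medulla, where a section held 0 to 1 UMIs per zone.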
